A study of Schizosaccharomyces pombe with 17 samples.

Results

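Meiotic cohesin and recombination genes of fission yeast (Schizosaccharomyces pombe) were followed through 14 libraries of polyA-selected RNA from vegetative cultures. The 7 genes, of 7027 features in the deposited table, were taken for their roles: rec8 and rec11 for meiotic cohesin, rec10 and mek1 for the chromosome axis and its checkpoint, rec12 for the breaks that start recombination, and mcp7 and meu13 for strand exchange. This choice was made with earlier results of these data known. All 7 were found in the table by systematic ID. Values are FPKM, fragments mapped to a transcript scaled to its length and to the library's mapped fragments, so levels can be compared between genes.

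The study compared wild type with mutants of Rrp6 and Dis3, the exonucleases of the RNA exosome, in 7 groups of 2 libraries. Wild type (strain CHP1365), rrp6Δ (JLP1704) and rrp6-cat (JLP1708) were harvested in mid-log phase at 32 °C. The temperature-sensitive strains dis3-4 (JT449) and rrp6-cat dis3-4 (JLP1863) were sampled at 23 °C and after 1 h at 30 °C. All cultures grew in rich YES liquid medium, and each genotype was 1 named strain. No wild type library came from 23 °C or 30 °C, and against wild type the effects of genotype and temperature cannot be told apart in both strains with dis3-4. No source used here says what the allele rrp6-cat changes or how much of rrp6 the deletion removes. A further 3 libraries, made by ligating an adapter to RNA 3′ ends, were not analysed here.

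In meiosis, sister chromatids are held together by a cohesin whose kleisin subunit is Rec8, the homologous chromosomes are broken by Rec12, and the breaks are repaired by strand exchange on an axis of linear elements. Growing cells transcribe some genes of this programme but keep their messages low: the RNA-binding protein Mmi1 recognises repeated hexamers in such transcripts, and the nuclear exosome with Rrp6 degrades them. The rec8 message is among those in which this system was first described.

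The Mmi1 hexamer, TNAAAC in DNA letters (UNAAAC in RNA), was searched in the coding sequences of the 7 genes, because it is the known sequence feature of messages removed this way. Sequences are those of RefSeq, assembly ASM294v3, matched by systematic ID. They were not used to choose the genes. The densest stretch of 30 bases is shown for the 4 genes in which it holds 2 or more hexamers, 5′ to 3′ on the coding strand, with the hexamers in capitals:
rec8, bases 1051 to 1080 of the coding sequence: tTAAAACcatggattgaaaagcTCAAACca
mek1, bases 1296 to 1325: TGAAACtcgtattcTCAAACctcTTAAACa
mcp7, bases 276 to 305: tgattTGAAACaaaaatcTAAAACtttaga
meu13, bases 620 to 649: tTGAAACggagggaccaattgacTTAAACt

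On the coding strand, rec8 (coding length 1686 bases) held 11 hexamers, which is 6.52 per kb. The small genes mcp7 and meu13 (633 and 651 bases) held 5 each, which is 7.90 and 7.68 per kb. Across 4912 coding sequences of 300 bases or more the median was 1.54 per kb, and 80.5% held at least 1 match. A density at least as high was found in 0.896% of them for rec8, in 0.366% for mcp7 and in 0.468% for meu13. A count at least as high, whatever the length, was found in 1.36% for rec8 and in 15.3% for mcp7 and for meu13. The other genes were nearer the genome's median: rec10 had 3.79 per kb (9 matches; 6.80% of coding sequences at least as dense), mek1 3.74 per kb (5 matches; 6.92%), rec11 2.89 per kb (8 matches; 15.0%) and rec12 1.93 per kb (2 matches; 38.0%). In mek1, 3 hexamers fell within 30 bases at the 3′ end of the coding sequence, which 0.122% of coding sequences show anywhere. Windows with at least 2 occurred in 8.20%. On the opposite strand the counts were 6 for rec8, 1 for mcp7, 2 for meu13, 9 for rec10, 2 for mek1, 5 for rec11 and 2 for rec12, with a median over all coding sequences of 1.52 per kb. A match is a description of the letters and not of binding, and introns and untranslated regions were not searched.

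**Figure D1:**
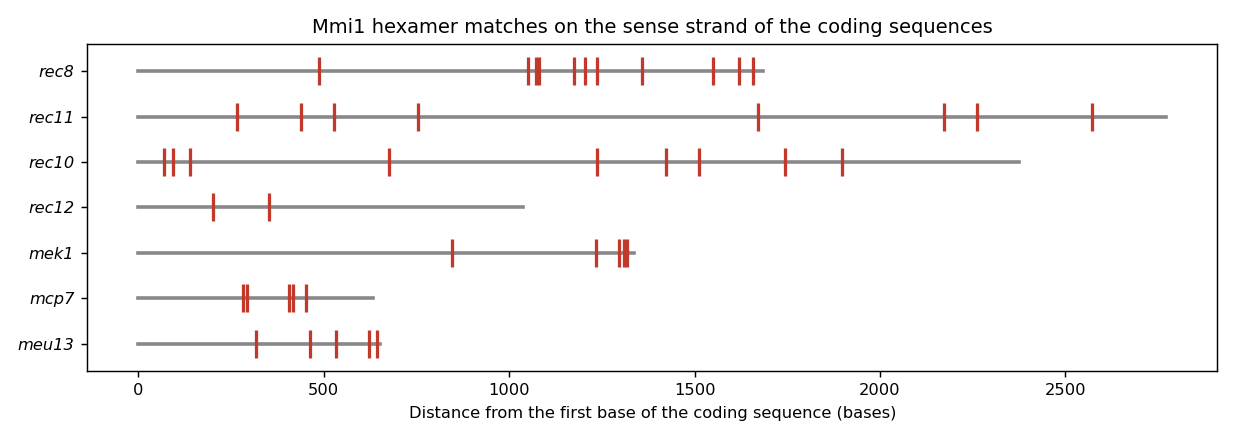
Positions of TNAAAC matches on the coding strand (red ticks) along the coding sequence of each gene (grey bar, drawn to length; x axis, bases from the first base of the coding sequence). Of the 11 matches of rec8 all but 1 lie in the 3′ part of its sequence, and mcp7 and meu13 hold 5 each over a much shorter sequence.

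Depth could be read in relative terms only, since the values of low genes in a library are multiples of what 1 fragment is worth. On that scale wild type replicate 2 had 0.245 times the depth of wild type replicate 1, and the other libraries 0.285 to 1.10 times. Wild type replicate 2 also had the fewest features at 1 FPKM or more (5619, with 5849 to 6017 in the others), and the wild type libraries differed most from each other (mean square of log2 values between replicates 0.663, and 0.166 to 0.334 in the mutant groups). The limma fit shares 1 estimate of spread over all groups, so p-values against wild type can be too small. The labels do not state that replicates came from separate cultures, and the p-values then measure only the spread between these libraries, which may be technical. A value of 0 need not mean an absent transcript: the essential cohesin gene psm3 was listed at 0 in every wild type and rrp6Δ library. The level of rrp6 mRNA itself was higher in rrp6Δ (154 ± 36.3 FPKM, SD, n = 2) than in wild type (69.3 ± 37.0). Its log2 fold change was 1.22 (limma, adjusted p = 0.0482), a call that was not tried under other processing choices. The label is thus not borne out by that gene's own reads, and every direction given for rrp6Δ is that of the libraries carrying this label.

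The scaling of the libraries sets how many genes appear higher, but not the direction of the 6 tested genes against wild type. Median-of-ratios size factors moved the median log2 fold change of all genes in rrp6Δ from 0.23 to 0.02, and quantile normalization moved it to -0.14. The share of higher genes among those called in rrp6Δ went from 78.4% to 62.2% and 49.4%. In rrp6-cat dis3-4 it went from 79.8% to 65.9% and 54.3% at 23 °C and from 84.1% to 65.2% and 52.8% at 30 °C. In rrp6-cat, and in dis3-4 at 23 °C and 30 °C, quantile normalization lowered it from 86.6%, 85.9% and 74.3% to 67.9%, 69.7% and 60.1%.

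In the libraries labelled rrp6Δ, 6 of the 7 genes rose against wild type: rec8, rec11, rec10, mek1, mcp7 and meu13. The remaining gene, rec12, stayed at or near 0 in every group and was not tested. Of all 6083 genes tested, 9.81% were higher in this comparison (limma, Benjamini-Hochberg adjusted p under 0.05). All 60 values of the 6 genes under other processing choices, each library left out in turn included, kept their call. The median log2 fold change was 3.76 over the 6 tested genes and 0.23 over all tested genes. A gene passed the test's filter if its mean over the 14 libraries reached 1 FPKM, so genes near 0 in wild type passed through the mutant libraries that held them. In bulk RNA, more cells of a type and more RNA per cell cannot be told apart.

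The cohesin pair rose by very different amounts. The message for Rec8, the kleisin that replaces Rad21 in meiosis, was listed at 5.98 and 0 FPKM in wild type replicates 1 and 2 (gene SPBC29A10.14, chromosome II). In both rrp6Δ libraries it reached 465 and 351 FPKM. In rrp6-cat it stood at 13.6 and 10.9 FPKM. In dis3-4 it was 9.72 and 20.1 FPKM at 23 °C and 16.6 and 16.0 FPKM at 30 °C. Both rrp6Δ libraries were thus far above all others, and every mutant library lay above both wild type libraries. In rrp6-cat dis3-4, rec8 was 17.8 and 15.9 FPKM at 23 °C and 18.3 and 18.7 FPKM at 30 °C. Its log2 fold change on the log2(FPKM + 1) scale in rrp6Δ was 7.26 (SE 0.67, adjusted p = 2.89e-05). Without wild type replicate 1 this was 8.66, and without wild type replicate 2, the shallowest library, 5.86.

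Rec11, the STAG-type partner that joins Rec8 on chromosome arms, stayed at a low level. Its mRNA (SPCC4E9.01c, chromosome III) stood at 1.36 and 0 FPKM in wild type and rose to 19.7 and 15.9 FPKM in rrp6Δ. The libraries of rrp6-cat held 3.92 and 4.17 FPKM, and those of dis3-4 5.28 and 6.27 FPKM at 23 °C and 8.52 and 7.98 FPKM at 30 °C. In rrp6-cat dis3-4 the values were 5.79 and 9.13 FPKM at 23 °C and 8.36 and 8.89 FPKM at 30 °C. The order was the same at both ends as for rec8, with rrp6Δ highest, wild type lowest and no overlap between mutant and wild type libraries. The log2 fold change in rrp6Δ was 3.61 (SE 0.47, adjusted p = 0.000366), and it was 4.23 and 2.98 without wild type replicate 1 and 2. Per length, rec8 stood at 23.7 and 22.1 times rec11 in the rrp6Δ libraries, at 4.39 times in wild type replicate 1, and at 1.74 to 3.47 times in the other mutant libraries. The non-coding gene SPNCRNA.1180 overlaps rec11 on the opposite strand in the reference annotation, and no source used here says whether counting used strand. It went from 6.88 ± 2.77 FPKM in wild type to 21.1 ± 1.87 in rrp6Δ (log2 1.53, adjusted p = 0.0723), and its part in the rec11 values was not tested.

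Rec10, the main component of linear elements, had the highest level in wild type replicate 2 of the 7 genes. Its mRNA (SPAC25G10.04c, chromosome I) was 7.57 and 6.19 FPKM in wild type and 72.2 and 43.6 FPKM in rrp6Δ. It was 23.2 and 20.8 FPKM in rrp6-cat, 19.3 and 16.8 FPKM in dis3-4 at 23 °C, and 22.0 and 17.2 FPKM in dis3-4 at 30 °C. In rrp6-cat dis3-4 it was 22.2 and 29.8 FPKM at 23 °C and 23.8 and 23.9 FPKM at 30 °C. The intermediate mutants thus stood close to each other, below both rrp6Δ libraries and above both wild type libraries. The log2 fold change in rrp6Δ was 2.86 (SE 0.31, adjusted p = 0.000101). The gene zip1, a transcription factor gene that overlaps rec10 on the opposite strand, was at 156 ± 44.1 FPKM in wild type and 129 ± 22.5 in rrp6Δ (log2 -0.25, adjusted p = 0.56).

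Mek1, a checkpoint kinase of meiotic recombination, was the gene in which a dis3-4 group came nearest to rrp6Δ. Its mRNA (SPAC14C4.03, chromosome I) was 3.21 and 2.91 FPKM in wild type and 44.1 and 32.8 FPKM in rrp6Δ. In dis3-4 it was 17.8 and 7.52 FPKM at 23 °C and 26.7 and 24.3 FPKM at 30 °C. In rrp6-cat dis3-4 it was 7.28 and 15.1 FPKM at 23 °C and 18.7 and 15.8 FPKM at 30 °C. The libraries of rrp6-cat, at 13.9 and 8.53 FPKM, lay within the range of the 23 °C libraries, and no mutant library overlapped wild type. The log2 fold change in rrp6Δ was 3.27 (SE 0.45, adjusted p = 0.000542).

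The break-forming enzyme Rec12, the fission yeast Spo11, was at or near 0 throughout. Its mRNA (SPAC17A5.11, chromosome I) was listed at 0 FPKM in 10 of the 14 libraries. The values above 0 were 0.459 FPKM in wild type replicate 1, 0.676 in rrp6Δ replicate 1, 1.25 in rrp6-cat replicate 1 and 1.39 in rrp6-cat dis3-4 at 23 °C replicate 2. Scaled to the relative depth of each library, these are 1, 1, 3 and 1 times the smallest of them. If that smallest value is 1 fragment, which was not tested, no library held more than a few fragments. A difference of a few such units between groups was not detectable. A value of 3 such units would have been 1.38 FPKM in wild type replicate 1 and 5.63 in wild type replicate 2. In rrp6Δ it would have been 2.03 FPKM in replicate 1 and 4.53 in replicate 2. The lowest rrp6Δ value among the tested genes was 15.9 FPKM (rec11), and rec12 did not reach that level. The antisense gene SPNCRNA.760, which overlaps rec12 on the opposite strand, was at 28.2 ± 3.72 FPKM in rrp6Δ and 6.39 ± 1.08 in wild type (log2 1.98, adjusted p = 0.00159), while rec12 itself was listed at 0.676 and 0.

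Mcp7 and Meu13 form a complex that helps the recombinases in strand exchange, like Mnd1 and Hop2 of budding yeast. The mcp7 mRNA (SPAC13A11.03, chromosome I) was 13.0 and 2.66 FPKM in wild type and 532 and 476 FPKM in rrp6Δ, the highest level of the 7 genes. It was 34.4 and 45.6 FPKM in rrp6-cat, 26.1 and 26.4 FPKM in dis3-4 at 23 °C, and 29.8 and 34.5 FPKM at 30 °C. In rrp6-cat dis3-4 it was 46.6 and 25.6 FPKM at 23 °C and 38.9 and 53.3 FPKM at 30 °C. As with rec8, the rrp6Δ libraries stood about an order of magnitude above every other mutant library, and none of these overlapped wild type. The log2 fold change in rrp6Δ was 6.14 (SE 0.50, adjusted p = 9.65e-06), and 7.10 and 5.17 without wild type replicate 1 and 2. The gene ubp8, a deubiquitinase gene overlapping mcp7 on the opposite strand, was at 29.5 ± 6.36 FPKM in rrp6Δ and 19.5 ± 6.15 in wild type (log2 0.59, adjusted p = 0.267).

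The meu13 mRNA (SPAC222.15, chromosome I) was 2.93 and 5.99 FPKM in wild type and 93.8 and 65.0 FPKM in rrp6Δ. It was 4.66 and 17.5 FPKM in rrp6-cat, 11.1 and 10.3 FPKM in dis3-4 at 23 °C, and 12.2 and 5.54 FPKM at 30 °C. In rrp6-cat dis3-4 it was 20.6 and 15.5 FPKM at 23 °C and 20.0 and 12.5 FPKM at 30 °C. This was the only gene of the 6 tested in which single libraries of rrp6-cat and of dis3-4 at 30 °C fell within the wild type range. The log2 fold change in rrp6Δ was 3.92 (SE 0.56, adjusted p = 0.000699). Per length, mcp7 stood at 5.67 and 7.32 times meu13 in rrp6Δ, at 4.45 and 0.445 times in wild type and at 1.65 to 7.37 times elsewhere, so the balance within this pair varied as much between replicates as between groups.

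**Figure D2:**
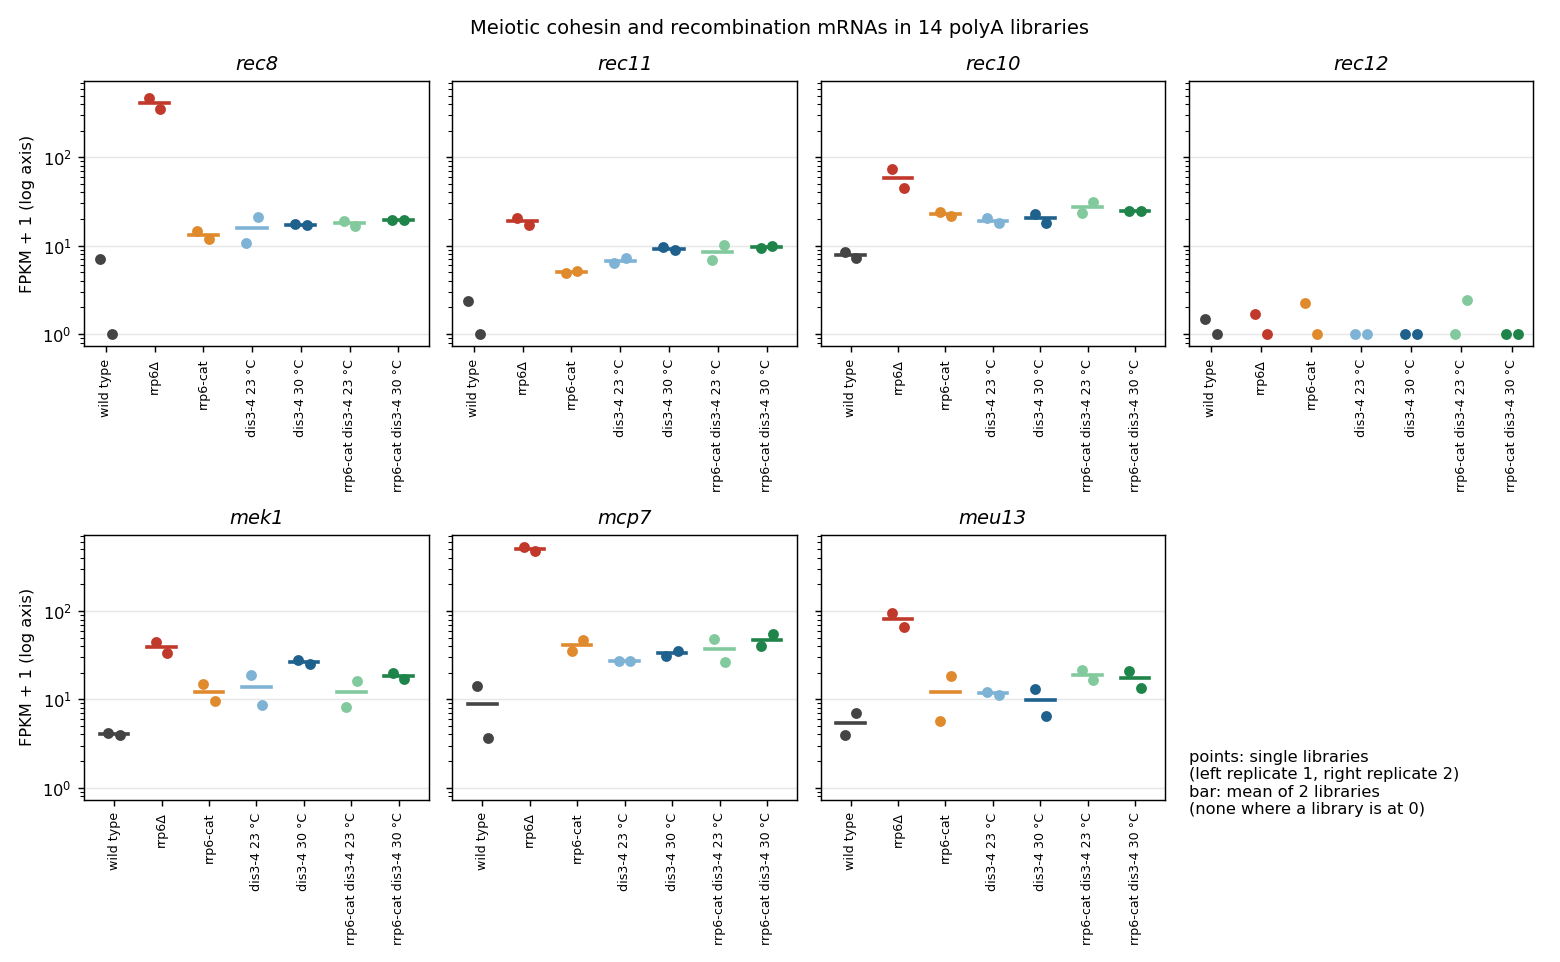
FPKM + 1 (log axis) of the 7 genes in each of the 14 libraries, by group. Points are single libraries and bars are means of 2, drawn where neither library is at 0. In 6 genes the libraries labelled rrp6Δ lie highest, with rec8 at 465 and 351 FPKM and mcp7 at 532 and 476 FPKM, and rec12 stays at or near 0.

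In rrp6-cat, the other rrp6 allele, 2 of the 6 tested genes rose against the same wild type libraries, rec10 and mcp7, where 4.88% of all genes tested were higher. The log2 fold change was 1.55 (SE 0.31, adjusted p = 0.013) for rec10 and 2.50 (SE 0.50, adjusted p = 0.0126) for mcp7. For the others it was 2.32 for rec8 (adjusted p = 0.0713), 1.71 for rec11 (0.0554), 1.56 for mek1 (0.0705) and 0.97 for meu13 (0.437). The median was 1.63 over the 6 genes and 0.18 over all genes. The rec10 call was lost without wild type replicate 2 (log2 1.42) and without rrp6-cat replicate 1 (1.47) or 2 (1.63), and the mcp7 call without rrp6-cat replicate 2 (2.30). Without wild type replicate 1 the values were 3.47 for mcp7, 3.72 for rec8 and 2.33 for rec11, and the latter genes were then called too, while without wild type replicate 2 mcp7 was at 1.53, rec8 at 0.92 (adjusted p = 0.36) and rec11 at 1.09 (adjusted p = 0.333). With library quality weights, which came to 0.29 for wild type and 0.832 to 2.04 for the mutants, neither call held (adjusted p = 0.136 for rec10 and 0.0526 for mcp7), whereas rec11 passed with size factors (1.70) and with no filter on low values.

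In dis3-4 some of the same genes rose at both temperatures. At 23 °C 3 of the 6 tested genes rose against wild type, rec11, rec10 and mcp7 (4.39% of all genes higher). At 30 °C 5 rose, all but meu13 (6.38% of all genes higher). The medians over the 6 genes were 1.78 and 2.40, with 0.02 and -0.03 over all genes. At 30 °C the log2 fold change was 2.70 for mek1 (SE 0.45, adjusted p = 0.00324), 2.71 for rec8 (SE 0.67, 0.0287), 2.59 for rec11 (SE 0.47, 0.00538), 2.21 for mcp7 (SE 0.50, 0.0182), 1.38 for rec10 (SE 0.31, 0.0177) and 0.83 for meu13 (SE 0.56, 0.419). At 23 °C it was 2.14 for rec11 (SE 0.47, adjusted p = 0.0213), 1.27 for rec10 (SE 0.31, 0.0375), 1.93 for mcp7 (SE 0.50, 0.049), 2.51 for rec8 (0.0559), 1.64 for mek1 (0.0609) and 1.16 for meu13 (0.308). At 30 °C the calls of rec11 and mek1 held with any 1 of the compared libraries left out. Those of rec8, rec10 and mcp7 were lost without wild type replicate 2 (log2 1.31, 1.26 and 1.24), without dis3-4 replicate 1 (2.69, 1.21 and 2.31) and without dis3-4 replicate 2 (2.73, 1.55 and 2.10). At 23 °C the calls of rec11, rec10 and mcp7 were lost without wild type replicate 2 (1.52, 1.15 and 0.96), without dis3-4 replicate 1 (2.24, 1.18 and 1.93) and without dis3-4 replicate 2 (2.03, 1.37 and 1.92). Without wild type replicate 1, rec8 was at 3.91 (23 °C, then called) and 4.11 (30 °C), mcp7 at 2.89 and 3.17, and rec11 at 2.76 and 3.21, and without replicate 2 rec8 was at 1.11 at 23 °C (adjusted p = 0.14) and rec11 at 1.97 at 30 °C. Leaving out dis3-4 replicate 2 at 23 °C brought in mek1 (2.21). With library quality weights no gene was called at either temperature (adjusted p = 0.0668 to 0.199 at 30 °C and 0.142 to 0.264 at 23 °C for the genes above). With a pseudocount of 0.1, rec8 at 30 °C (4.39) and mcp7 at 23 °C (2.13) lost their calls, as they did with no filter on low values, and quantile normalization ended that of rec10 at 23 °C (0.91). Size factors brought in rec8 (2.64) and mek1 (1.63) at 23 °C.

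In rrp6-cat dis3-4, 5 of the 6 tested genes rose against wild type at each temperature, all but meu13. Of all genes, 9.42% were higher at 23 °C and 11.7% at 30 °C. The medians over the 6 genes were 2.08 and 2.41, with 0.15 and 0.24 over all genes. At 30 °C the log2 fold change was 2.88 for rec8 (SE 0.67, adjusted p = 0.015), 2.65 for rec11 (SE 0.47, 0.00357), 1.66 for rec10 (SE 0.31, 0.00491), 2.17 for mek1 (SE 0.45, 0.00824), 2.70 for mcp7 (SE 0.50, 0.00466) and 1.68 for meu13 (SE 0.56, 0.0681). At 23 °C it was 2.75 for rec8 (adjusted p = 0.0217), 2.43 for rec11 (0.00658), 1.77 for rec10 (0.00418), 1.51 for mek1 (0.0496), 2.31 for mcp7 (0.0122) and 1.85 for meu13 (0.0523). At 30 °C the calls of rec11 and rec10 held with any 1 of the compared libraries left out, while those of rec8 (log2 2.90 and 2.87) and mek1 (2.05 and 2.28) were lost without replicate 1 or 2 of the mutant, and that of mcp7 without replicate 2 (2.48). At 23 °C the mek1 call was lost with any of the 4 libraries left out (1.03 to 1.99), that of rec8 without wild type replicate 2 (1.35) or either mutant library (2.67 and 2.83), those of rec11 and rec10 without mutant replicate 2 (2.14 and 1.56), and that of mcp7 without mutant replicate 1 (1.89). Without wild type replicate 1, rec8 was at 4.15 (23 °C) and 4.29 (30 °C), mcp7 at 3.28 and 3.67, and rec11 at 3.05 and 3.27. Without wild type replicate 2, rec8 was at 1.48 (30 °C), mcp7 at 1.34 and 1.73, and rec11 at 1.81 and 2.03. The mek1 calls were lost at both temperatures with quantile normalization (0.82 and 1.41) and with library quality weights. The mek1 call at 23 °C was also lost with no filter on low values. That of rec8 at 23 °C was lost with no filter on low values (adjusted p = 0.0504) and with a pseudocount of 0.1 (4.44, adjusted p = 0.0564). All 6 comparisons with wild type share its 2 libraries.

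**Figure D3:**
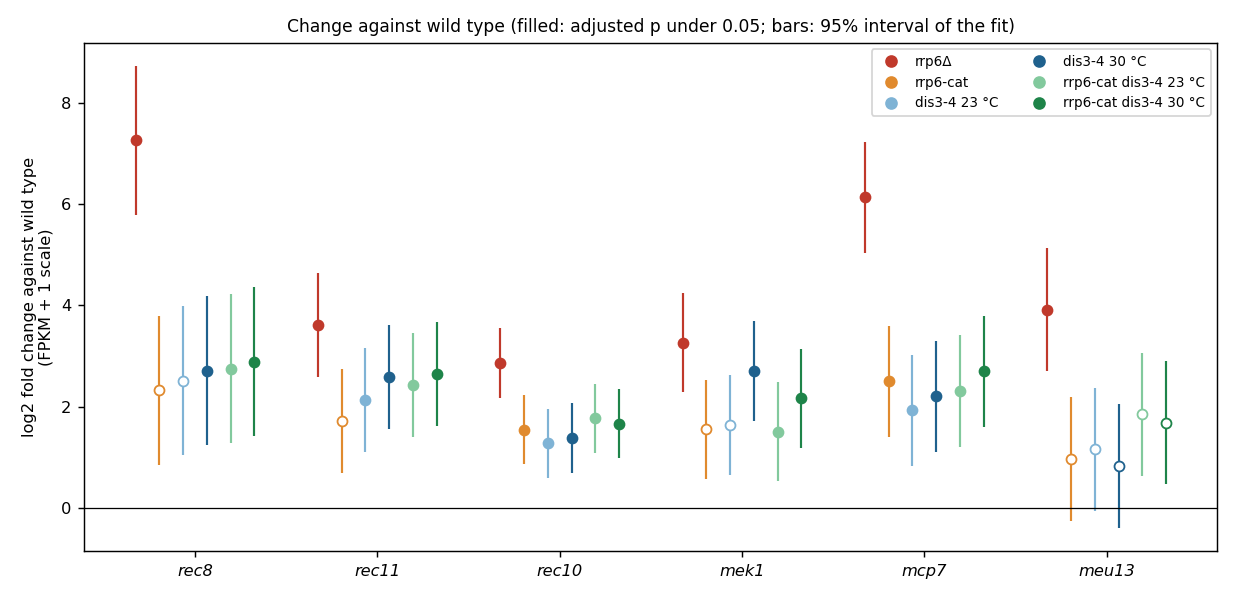
Log2 fold change against wild type (y axis, FPKM + 1 scale) of the 6 tested genes in the 6 mutant groups, with the 95% interval of the limma fit. Filled points passed an adjusted p of 0.05. The rrp6Δ values of rec8 (7.26), mcp7 (6.14), meu13 (3.92) and rec10 (2.86) stand above the intervals of the other mutants. Those of rec11 and mek1 do not, and meu13 is filled in rrp6Δ only.

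The libraries labelled rrp6Δ were set against each other mutant directly, which asks whether the rise there was larger. Against rrp6-cat, 3 of the 6 tested genes were higher in rrp6Δ, where 1.30% of all genes were. They were rec8 (log2 difference 4.94, SE 0.67, adjusted p = 0.00301), mcp7 (3.63, SE 0.50, adjusted p = 0.00331) and meu13 (2.95, SE 0.56, adjusted p = 0.019). For rec11, rec10 and mek1 the differences were 1.89 (95% interval 0.87 to 2.92, adjusted p = 0.0769), 1.31 (0.63 to 2.00, adjusted p = 0.0637) and 1.71 (0.73 to 2.69, adjusted p = 0.0917). The rec8 call held with any 1 of the compared libraries left out, that of mcp7 was lost without rrp6Δ replicate 2 (3.71, adjusted p = 0.0507), and that of meu13 without either rrp6Δ library (2.69 and 3.21) or rrp6-cat replicate 1 (2.09). The meu13 difference was 3.80 when rrp6-cat replicate 2 was the one left out. With a pseudocount of 0.1 the rec8 call was lost (5.04, adjusted p = 0.113), and with no filter on low values that of meu13 (adjusted p = 0.0508). With size factors, quantile normalization or library quality weights, rec11 (1.83 to 1.93) and rec10 (1.21 to 1.31) passed as well.

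The comparisons of rrp6Δ with the dis3-4 groups were added after the values had been seen, and temperature differs in each. Against dis3-4, 4 genes were higher in rrp6Δ at 23 °C and at 30 °C, rec8, rec10, mcp7 and meu13 both times (3.16% and 2.94% of all genes higher). The log2 difference from dis3-4 at 30 °C was 4.55 for rec8 (adjusted p = 0.00303), 3.93 for mcp7 (0.00131), 3.09 for meu13 (0.0109) and 1.48 for rec10 (0.0258). It was 0.56 for mek1 (95% interval -0.42 to 1.54, adjusted p = 0.52) and 1.02 for rec11 (-0.01 to 2.04, adjusted p = 0.253). From dis3-4 at 23 °C it was 4.75 for rec8 (0.00226), 4.21 for mcp7 (0.000663), 2.76 for meu13 (0.017) and 1.59 for rec10 (0.0153). The rec8 and mcp7 calls against dis3-4 held with any 1 of the compared libraries left out at either temperature. Those of meu13 and rec10 were lost without some of these: for meu13 any of the 4 libraries at 23 °C (2.50 to 3.02), and at 30 °C either rrp6Δ library (2.83 and 3.35) or dis3-4 replicate 2 (2.59); for rec10 without rrp6Δ replicate 1 (1.23 at 23 °C and 1.12 at 30 °C), without dis3-4 replicate 1 at 23 °C (1.68) and without dis3-4 replicate 2 (1.49 and 1.31).

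Against rrp6-cat dis3-4, only rec8 and mcp7 of the 6 tested genes were higher in rrp6Δ, at either temperature (0.888% and 0.904% of all genes higher). The log2 difference was 4.51 (adjusted p = 0.00677) at 23 °C and 4.38 (0.00836) at 30 °C for rec8, and 3.83 (0.00366) and 3.44 (0.00566) for mcp7. These calls were lost with any 1 of the compared libraries left out (rec8 4.31 to 4.71 and 4.18 to 4.58, mcp7 at 30 °C 3.21 to 3.66), except mcp7 at 23 °C, which was lost only without rrp6-cat dis3-4 replicate 2 (3.41). With a pseudocount of 0.1 the rec8 calls were lost here and against dis3-4 (4.44 to 4.84, adjusted p = 0.0804 to 0.148), while those of mcp7 were kept. For meu13 the differences were 2.07 (95% interval 0.85 to 3.28, adjusted p = 0.104) and 2.23 (1.01 to 3.45, adjusted p = 0.0681). Of the genes not called, quantile normalization brought in rec10 (1.03 and 1.22), with mek1 at 23 °C (1.74) and meu13 at 30 °C (2.33), and library quality weights brought in rec10 and meu13, with mek1 at 23 °C.

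**Figure D4:**
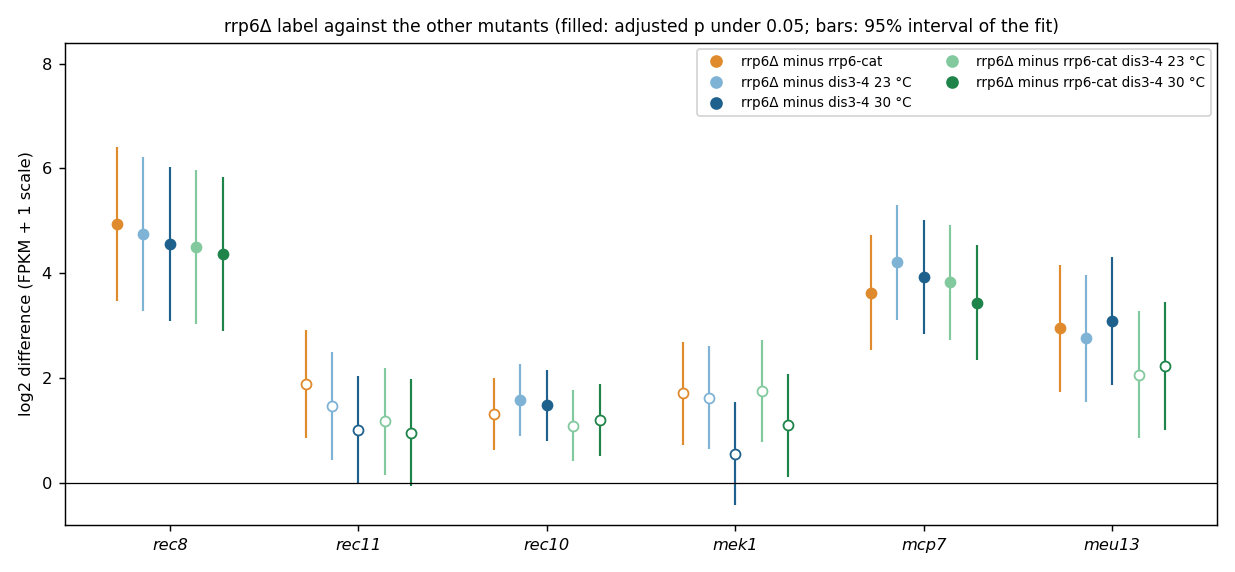
Log2 difference (y axis, FPKM + 1 scale) between the libraries labelled rrp6Δ and each other mutant group for the 6 tested genes, with the 95% interval of the limma fit. Filled points passed an adjusted p of 0.05. The points of rec8 (4.38 to 4.94) and mcp7 (3.44 to 4.21) are filled in all 5 comparisons, and those of rec11 and mek1 in none.

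Within the dis3-4 strains, neither the shift to 30 °C nor the added rrp6-cat allele moved any of the 6 tested genes past the threshold. From 23 °C to 30 °C the called share of all genes was 0% in dis3-4 and in rrp6-cat dis3-4, where limma's unadjusted p was under 0.05 for 273 and 96 of 6083 genes. The largest change among the 6 was that of mek1 in dis3-4, from 17.8 and 7.52 to 26.7 and 24.3 FPKM (log2 1.06, 95% interval 0.08 to 2.04, limma's unadjusted p = 0.0356, adjusted p = 1). For rec8 the change was 0.20 (-1.27 to 1.67) in dis3-4 and 0.13 (-1.34 to 1.60) in rrp6-cat dis3-4; these intervals are wide on both sides of 0. Adding rrp6-cat to dis3-4 moved rec8 by 0.17 (-1.30 to 1.64) at 30 °C and by 0.24 (-1.23 to 1.71) at 23 °C, with 1.84% and 0.986% of all genes called. The widest gaps there were 0.86 (-0.36 to 2.08, adjusted p = 0.483) at 30 °C and 0.69 (-0.53 to 1.91, adjusted p = 0.683) at 23 °C for meu13, and -0.54 (-1.52 to 0.44, adjusted p = 0.604) at 30 °C for mek1. The temperature change did not differ detectably between the strains for any of the 6 (log2 -0.41 to 0.17, adjusted p = 0.999; 0% of all genes called, 163 at an unadjusted p under 0.05).

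By level, rrp6Δ came first and wild type last for all 6 tested genes, and the 5 groups between them changed order from gene to gene. The group below rrp6Δ was rrp6-cat dis3-4 at 30 °C for rec8, mcp7 and rec11, rrp6-cat dis3-4 at 23 °C for rec10 and meu13, and dis3-4 at 30 °C for mek1. The gap to it passed the test for rec8 and mcp7 and not for rec11, rec10, mek1 or meu13. The group above wild type was rrp6-cat for rec8 and rec11, dis3-4 at 23 °C for rec10 and mcp7, rrp6-cat dis3-4 at 23 °C for mek1 and dis3-4 at 30 °C for meu13. This gap passed for rec10, mcp7 and mek1 and not for rec8, rec11 or meu13. Among the 5 groups between, 4 pairs were tested, and none gave a call in these genes.

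Other genes of meiotic prophase were read from lists by role, and their counts in rrp6Δ stand against the 9.81% of all genes that were higher there. Of 4 linear element genes 3 were tested (median log2 2.72 in rrp6Δ, with 0.23 over all genes), and rec25 and rec27, small linear element proteins that bind recombination hotspots, rose in rrp6Δ. The rec25 mRNA was at 10.0 ± 8.43 FPKM in wild type and 64.9 ± 14.4 in rrp6Δ, a log2 change of 2.81 (SE 0.45, adjusted p = 0.0015) that came to 3.68 and 1.94 without wild type replicate 1 and 2. The rec27 mRNA was at 3.37 ± 0.05 FPKM in wild type and 28.0 ± 3.10 in rrp6Δ, a log2 change of 2.72 (SE 0.36, adjusted p = 0.000397). Both also rose in dis3-4 at 30 °C (2.63 and 2.27) and in rrp6-cat dis3-4 at 23 °C (2.74 and 2.07) and 30 °C (2.63 and 2.11), rec25 alone in dis3-4 at 23 °C (2.29), and neither in rrp6-cat (1.67, adjusted p = 0.0526, and 1.19, adjusted p = 0.0789). Without 1 library, rec25 in dis3-4 at 23 °C (2.04 without dis3-4 replicate 1) and rec27 in rrp6-cat dis3-4 at 23 °C (1.86 without its replicate 2) lost their calls, and rec25 ran from 1.42 to 3.61 in the dis3-4 groups when a wild type library was left out. Of the other 2, mug20 was at 1.39 (adjusted p = 0.216) in rrp6Δ and hop1 was too low to test.

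Partners of Rec12 and the enzymes of strand exchange were counted next. Of 10 genes of break formation and processing, 5 were tested and none was called in any comparison with wild type (median log2 0.55 in rrp6Δ, with 0.23 over all genes). Among those not tested, the Rec12 partners rec7, rec15 and rec24 were listed at 0 in all wild type and rrp6Δ libraries. Of 9 strand exchange genes 8 were tested and 1 was called in rrp6Δ, near the 9.81% of all genes (median log2 0.46): rdh54, a DNA translocase, rose in rrp6Δ to 27.8 ± 3.69 FPKM, with 8.70 ± 1.05 in wild type (log2 1.57, SE 0.32, adjusted p = 0.00793; lost without rrp6Δ replicate 1, at 1.44, and with quantile normalization, at 0.97). It also passed in rrp6-cat dis3-4 (1.21 at both temperatures), where the call was lost with any of the 4 compared libraries left out at 23 °C (1.06 to 1.36). At 30 °C it was lost without wild type replicate 2 (1.32), without mutant replicate 1 (1.45) or 2 (0.96), with size factors (1.00) and, at both temperatures, with quantile normalization (0.72 and 0.60). The meiotic recombinase dmc1 was listed at 0 in all wild type and rrp6Δ libraries. Of 9 genes of joint molecule resolution and mismatch repair 8 were tested, and the nuclease gene mus81 passed in rrp6-cat dis3-4 at 30 °C alone of the 6 mutant groups (1.50, adjusted p = 0.0238; lost without wild type replicate 2, at 0.99, and without either mutant library, at 1.63 and 1.37).

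Among the mitotic cohesin genes and the partners of Rec8, 1 of 10 tested passed in rrp6Δ, a share near the 9.81% of all genes (median log2 0.35). Of 11 genes for the cohesin core, its loaders and its guardians, 10 were tested, and in rrp6Δ sgo1, which protects Rec8 at centromeres, passed: it rose to 121 ± 38.6 FPKM, with 29.1 ± 24.2 in wild type (log2 2.26, SE 0.54, adjusted p = 0.0176). This call was lost without wild type replicate 2 (1.33) and without either rrp6Δ library (1.93 and 2.59), and without wild type replicate 1 the value was 3.19. The mitotic kleisin rad21 was at 20.5 ± 7.35 FPKM in rrp6Δ and 15.0 ± 1.65 in wild type (log2 0.38, adjusted p = 0.679). The moa1 mRNA, for a meiotic centromere protein that works with Rec8, had a log2 of 2.87 (adjusted p = 0.0577). In rrp6-cat dis3-4 the loader subunit ssl3 fell by 1.72 on the log2 scale at 23 °C and by 1.25 at 30 °C (adjusted p = 0.00634 and 0.0269); the first call was lost without mutant replicate 1 (-1.47), the second with any of the 4 libraries left out (-1.56 to -0.93).

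Of 8 genes that gather telomeres and move the nucleus in prophase 6 were tested, and 2 passed in rrp6Δ, where 9.81% of all genes were higher (median log2 1.22). The ssm4 mRNA, for a dynactin-like protein of nuclear movement, was at 6.57 ± 2.44 FPKM in wild type and 92.6 ± 20.8 in rrp6Δ, a log2 change of 3.65 (SE 0.34, adjusted p = 3.29e-05). The bqt1 mRNA, for a protein that ties telomeres to the spindle pole body, was at 6.64 ± 2.26 and 49.9 ± 13.9 FPKM, a log2 change of 2.74 (SE 0.42, adjusted p = 0.00108), and it passed in all 6 mutant groups (1.88 to 2.79). The calls of bqt1 were lost in dis3-4 at 23 °C without dis3-4 replicate 1 (1.32), and in rrp6-cat, dis3-4 at 30 °C and rrp6-cat dis3-4 at 23 °C without replicate 2 of the mutant (1.98, 2.09 and 2.20); it was also lost in dis3-4 at 23 °C with no filter on low values and with quantile normalization (1.49). The ssm4 mRNA also passed in rrp6-cat (1.30, adjusted p = 0.0477, lost without wild type replicate 2, at 0.97, and without either rrp6-cat library, at 1.00 and 1.61, and with quantile normalization, at 0.79), in dis3-4 at 30 °C (2.02) and in rrp6-cat dis3-4 at 23 °C and 30 °C (1.74 and 2.68; the first lost without mutant replicate 1, at 1.61). The partner of bqt1, bqt2, was listed at 0 in wild type and passed in dis3-4 at 30 °C, at 10.6 ± 0.70 FPKM. This call was lost with any of the 4 compared libraries left out (log2 3.47 to 3.60). A pseudocount of 0.1 and no filter on low values each ended this call and that of ssm4 in rrp6-cat. With library quality weights the calls of sgo1, ssl3, rdh54, mus81 and bqt2 were lost, as were those of rec27 in dis3-4 at 30 °C, of bqt1 in rrp6-cat and in dis3-4 at both temperatures, and of ssm4 in rrp6-cat, in dis3-4 at 30 °C and in rrp6-cat dis3-4 at 23 °C.

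**Figure D5:**
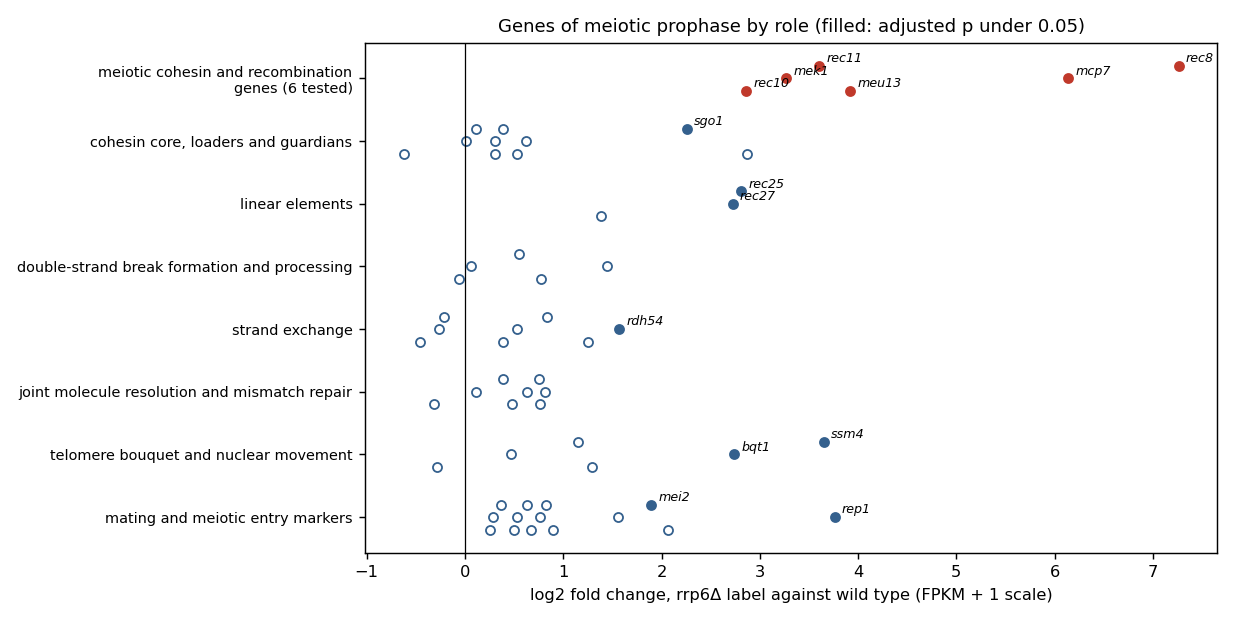
Log2 fold change in the libraries labelled rrp6Δ against wild type (x axis, FPKM + 1 scale) of every tested gene in 8 groups by role, 1 point per gene. Filled points passed an adjusted p of 0.05. The 6 tested meiotic cohesin and recombination genes (red) lie between 2.86 and 7.26, and in the other lists the points past the threshold are those named beside them.

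Markers of mating and entry into meiosis were measured in the same libraries. Their summed level over 16 genes was 281 and 192 FPKM in wild type, 452 and 451 in rrp6Δ, 258 and 263 in rrp6-cat, 293 to 359 in dis3-4 and 301 to 360 in rrp6-cat dis3-4. The genes adding most to the sum in rrp6Δ relative to wild type were rep1 and mfm2. The rep1 mRNA went from 4.94 ± 0.56 to 79.5 ± 2.86 FPKM. The mfm2 mRNA went from 81.8 ± 9.37 to 147 ± 67.2 FPKM and was not called. Between 1 and 3 of the 16 were listed at 0 in a library, among them mfm3 and ste6 in every wild type and rrp6Δ library. Of 14 tested, 2 rose in rrp6Δ (9.81% of all genes higher; median log2 0.72). Among them rep1, a transcription factor subunit for premeiotic DNA synthesis genes, rose in all 6 mutant groups (log2 3.76 in rrp6Δ, adjusted p = 3.36e-06, and 1.81 to 2.61 in the others). The meiosis regulator mei2 rose in rrp6Δ (1.90, adjusted p = 0.0328; lost without wild type replicate 2, at 1.23, without either rrp6Δ library, at 1.94 and 1.85, and with quantile normalization, at 0.95, and 2.57 without wild type replicate 1). The mei3 mRNA passed in rrp6-cat dis3-4 at 30 °C (2.80, limma, adjusted p = 0.0233). This call was lost without wild type replicate 2 (2.58), without either mutant library (2.88 and 2.71) and with quantile normalization (1.93). The master regulator ste11 was at 19.6 ± 0.51 FPKM in rrp6Δ and 14.8 ± 12.1 in wild type (adjusted p = 0.437). The pheromone gene mfm2, one of a family of near-identical copies between which reads may be split, was lower in rrp6-cat dis3-4 (-1.72 at 23 °C and -1.84 at 30 °C; both lost without either mutant library, at -1.52 and -1.92 and at -1.80 and -1.88). With library quality weights the calls of mei2 and mei3, and that of mfm2 at 23 °C, were lost. The part of these markers in the levels of rec8, mcp7 and the other recombination genes was not tested.

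Neighbours and look-alikes of the genes were read from the same table. The gene next downstream of rec8 on the same strand, orc1, was at 1.30 ± 0.05 FPKM in rrp6Δ and 1.28 ± 0.53 in wild type (log2 0.03, adjusted p = 0.994). Over the 14 libraries the 6 tested genes correlated with each other at Pearson's r from 0.638 (mek1 with meu13) to 0.980 (rec8 with mcp7), and over the 12 libraries without rrp6Δ from 0.350 to 0.935. The highest value without rrp6Δ was that of the cohesin pair rec8 and rec11, both listed at 0 in wild type replicate 2. That of rec8 with mcp7 was close, at 0.928. Among 5894 other genes that reached 5 FPKM in some group, the profiles most like the mean of the 6 were those of mug10 (r = 0.975), SPNCRNA.1197 (0.973), mug8 (0.972), SPNCRNA.1397 (0.968), arp1 (0.968) and SPNCRNA.1198 (0.964). For rec8 alone they were spo5 (0.974), mug8 (0.961) and arp1 (0.944). These correlations share the 14 libraries and their depths and are given as a description.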

How the data were processed

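The authors deposited FPKM values per feature and library, made with TopHat2 2.1.0, Bowtie2, Cufflinks 2.2.1 and Cuffnorm on build ASM294v2, per the submitters' processing notes. PolyA-selected, strand-marking (dUTP) libraries were sequenced, per the labels' protocols. No source used here names the annotation, the scaling between libraries, the use of strand in counting or the read numbers, so precision rests on the spread of 2 libraries a group. The authors' Cuffdiff table and the 3 libraries of ligated 3′ ends were not used.

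Values under 1e-06, present in 357 features, were set to 0. Features with a mean of at least 1 FPKM (6083 of 7027) were tested on log2(FPKM + 1), a scale that understates changes of low genes. A single limma model (limma 3.58.1, R 4.3.3) of 7 group means with a trended prior gave 12 comparisons, and 4 more were added after seeing the data; p-values were Benjamini-Hochberg adjusted over all tested features. The model was tested on data simulated with the same spread per gene in every group. The wider spread between the wild type libraries was therefore not covered. The 7 genes, the lists and the tests were chosen with earlier results of these data known. The 7 genes are always named, with rrp6 as the check of the label; of each other list, up to 4 genes with the largest change among those called against wild type. The profiles most like theirs are given for 6 genes (mean profile) and 3 genes (rec8), among features reaching 5 FPKM in a group mean. Other genes named (psm3, rec7, rec15, rec24, dmc1, mug20, hop1, rad21, moa1, ste11 and the overlapping or neighbouring genes) were chosen after their values were seen. Alternatives were a pseudocount of 0.1, no filter, median-of-ratios size factors, quantile normalization, library quality weights, a replicate block and leaving out each compared library.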

Additional observations from a re-analysis of the deposited data

How the results depend on the processing

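Of 984 alternative values for the 6 tested genes, 835 kept their direction and call, 94 lost a call, 26 gained one and 29 changed sign. None of the 29 was called either way (smallest adjusted p of limma 0.657). The cause of these shifts was not tested. Wild type replicate 2 is the shallowest library, and at the depth of these libraries small differences in rec12 were not detectable.

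Genes called out of the 6 tested changed as follows under other choices. With library quality weights 0 were called in rrp6-cat (2 as reported), in dis3-4 at 23 °C (3) and in dis3-4 at 30 °C (5), and 5, 5 and 4 were called in rrp6Δ against rrp6-cat (3), rrp6-cat dis3-4 at 23 °C (2) and at 30 °C (2). Quantile normalization gave 5, 4 and 4 in these last comparisons, a pseudocount of 0.1 gave 1 in both with rrp6-cat dis3-4, and size factors gave 5 in rrp6Δ against rrp6-cat and 5 in dis3-4 at 23 °C. With no filter, 3 were called in rrp6-cat dis3-4 at 23 °C against wild type (5 as reported). With 1 library left out, the counts against wild type were 6 to 6 in rrp6Δ, 0 to 4 in rrp6-cat, 0 to 4 and 2 to 5 in dis3-4 at 23 °C and 30 °C, and 1 to 4 and 2 to 5 in rrp6-cat dis3-4. For rrp6Δ against rrp6-cat they were 1 to 3, against dis3-4 2 to 3 and 2 to 4, and against rrp6-cat dis3-4 0 to 1 and 0 to 0.

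With the replicate number as a block the counts were 6, 2, 4, 5, 5 and 5 in the 6 comparisons with wild type, in the order above, and 4 in rrp6Δ against rrp6-cat. The calls it added were rec8 in dis3-4 at 23 °C (adjusted p = 0.0487) and rec10 against rrp6-cat (adjusted p = 0.0486). The labels do not say whether libraries with the same number share anything else. Over 21 pairs of groups the deviations of such libraries correlated at -0.154 to 0.315, with 5 pairs over 0.1.

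Sign changes fell within the dis3-4 strains. For rrp6-cat dis3-4 against dis3-4 at 30 °C, size factors gave -0.07 for rec8 and -0.17 for rec11, and quantile normalization gave -0.17 for rec8, -0.37 for rec11 and 0.00 for rec10. At 23 °C quantile normalization gave -0.01 for rec11. Size factors gave -0.03 for mcp7 in the difference of temperature changes. With 1 library left out, the change from 23 °C to 30 °C in dis3-4 ranged from -0.29 to 0.69 for rec8, from -0.06 to 0.28 for rec10 and from -0.84 to 0.17 for meu13. In rrp6-cat dis3-4 it ranged from -0.07 to 0.50 for rec11, from -0.31 to 0.10 for rec10, from -0.03 to 0.81 for mcp7 and from -0.49 to 0.15 for meu13. The gap between rrp6-cat dis3-4 and dis3-4 at 23 °C ranged from -0.25 to 0.73 for rec8, from -0.70 to 0.44 for mek1 and from -0.04 to 0.80 for mcp7. The difference of temperature changes ranged from -0.56 to 0.42 for rec8, from -0.53 to 0.05 for rec11, from -0.98 to 0.16 for mek1, from -0.31 to 0.53 for mcp7 and from -0.34 to 0.67 for meu13.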
